A study of Mus musculus with 3 samples.

Results

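Levels of 10 immediate early and Krüppel-like genes were examined in 3 perivascular and stromal cell populations of the embryonic day 11 (E11) aorta-gonad-mesonephros region (AGM), the tissue around the dorsal aorta in which hematopoietic stem and progenitor cells emerge. The genes were taken by symbol: Fos, Fosb, Jun, Junb, Egr1, Atf3, Ier2, Ier3, Klf4 and Klf6, which made up 10 of the 47069 genes of the expression table, and each of them had a row. Cells of C57BL/6J embryos of a single litter, pooled into one sample, were sorted by flow cytometry after cells with CD31, CD45 or cKit had been excluded. Double-positive cells (DP, NG2+ PDGFRβ+) are labelled vascular smooth muscle cells, PDGFRβ-single cells (PDGFRβ-S, NG2- PDGFRβ+) are labelled sub-vSMCs, and double-negative cells (DN, NG2- PDGFRβ-) are labelled stroma. The embryos carried no transgene or deletion by the labels, and the cells went into lysis buffer at the sort, without culture. Each population gave 1 library, so no difference below has a replicate check or a p-value, and the values describe these libraries.

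Immediate early genes are transcribed within minutes of a stimulus, without new protein synthesis, because the factors that switch them on, such as serum response factor with its Elk partners and CREB, are already present and are activated by kinases. Their products are mostly short-lived transcription factors. The Fos and Jun families pair into AP-1, Atf3 is a stress-induced factor of the ATF/CREB family, Egr1 is a zinc-finger factor, and Klf4 and Klf6 are Krüppel-like zinc-finger factors with roles in vascular smooth muscle and in injured tissue. The same genes are known to respond to growth factors, to stretch and to the enzymatic and mechanical dissociation of tissue into single cells.

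The promoters are shown because such stimuli are known to act in part through sites in promoters, and the members below differ in the letters matched. RefSeq sequence (GRCm38.p6) of 250 bases before to 50 bases after the start site was matched for 8 of the 10 genes, Egr1 and Ier2 not among them. The cAMP response element core TGACG, searched on both strands, was found in 5 of these 8 (Atf3, Fos, Fosb, Junb and Klf4) and in 20.8% of all 32851 promoters of that length. The variant TGACATCA, to which Jun-ATF pairs are known to bind, was found on both-strand search in 2 of the 8 (Jun and Klf6) and in 3.62% of all promoters, and neither it nor the core holds the other. The letters TATAA, searched on the forward strand, were found in 4 (Fos, Ier3, Junb and Klf4) and in 17.5% of all. The AP-1 site TGANTCA was in 0 of the 8 and in 7.81% of all promoters, and the CArG box bound by serum response factor was in 0 of the 8 and in 1.63%, both searched on both strands. These matches are descriptions of letters and were not measured as bound sites. Sequence outside this window was not searched, so 0 matches do not show that a gene lacks such sites. The 120 bases before the start site follow, 5′ to 3′ on the strand of the gene, with matches in capitals, for the 2 genes of the AP-1 core, Fos (chr12:85473770-85473889, plus strand) and Jun (chr4:95052223-95052342, minus strand), and for the 4 genes with a matched promoter with the largest differences of log2(TPM + 1) between DP and DN, Junb (chr8:84978749-84978868, minus strand), Atf3 (chr1:191183334-191183453, minus strand, at a start site inside the annotated gene), Ier3 (chr17:35821593-35821712, plus strand) and Klf6 (chr13:5861369-5861488, plus strand).
Fos: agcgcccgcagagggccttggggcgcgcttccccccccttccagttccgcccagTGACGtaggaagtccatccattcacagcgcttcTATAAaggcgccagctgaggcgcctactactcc
Jun: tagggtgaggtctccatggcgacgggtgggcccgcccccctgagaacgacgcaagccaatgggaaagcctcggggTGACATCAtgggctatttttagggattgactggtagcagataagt
Junb: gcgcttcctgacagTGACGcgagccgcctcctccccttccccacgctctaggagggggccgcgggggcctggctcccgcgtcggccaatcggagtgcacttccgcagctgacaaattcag
Atf3: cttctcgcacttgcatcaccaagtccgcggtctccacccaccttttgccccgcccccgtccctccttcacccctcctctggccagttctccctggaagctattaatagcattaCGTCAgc
Ier3: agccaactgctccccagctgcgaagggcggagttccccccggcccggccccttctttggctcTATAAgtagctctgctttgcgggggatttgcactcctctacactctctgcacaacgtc
Klf6: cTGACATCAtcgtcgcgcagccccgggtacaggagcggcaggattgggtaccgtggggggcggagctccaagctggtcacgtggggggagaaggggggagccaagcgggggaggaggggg
In Fos the capitals mark TGACG 66 bases and TATAA 33 bases before the start site, and a further TGACG lay 129 bases before it. In Jun they mark TGACATCA 45 bases before the start site and in Klf6 the same letters 119 bases before it. Junb had TGACG 106 bases before its start site. The TATAA of Junb began at the start site itself, after the printed stretch, and not before it. Atf3 had TGACG on the reverse strand, read here as CGTCA, 7 bases before its start site, and Ier3 had TATAA 58 bases before. The start site used for Ier3, like that of Atf3, lies inside the annotated gene, which begins at 35821684. The last printed bases of Ier3 are thus within that gene, and its TATAA is nearer to the annotated start.

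The levels are TPM, read shares per gene length that add up to 1000000 in each library. The reads behind them were recovered from the TPM and numbered about 12120000 in the DP library, 10760000 in PDGFRβ-S and 13030000 in DN, all on genes. Intervals given below are at 95%. They describe the counting of reads alone, and PCR copies of a molecule were counted like separate molecules. DP differed from the other libraries in the share of TPM on mitochondrial genes, 10.5% against 25.5% in PDGFRβ-S and 24.4% in DN, and on nuclear protein-coding genes, 56.5% against 43.4% and 46.3%, so every ratio with DP also holds that difference. The labelled smooth muscle type had its markers: all 6 of 6 smooth muscle genes were highest in DP, with summed levels of 7659 TPM in DP, 218 TPM in PDGFRβ-S and 116 TPM in DN, and Acta2, the smooth muscle actin, was at 6256, 148 and 84.1 TPM in the same libraries. The sort genes Pdgfrb (35.1 TPM in DP, 14.3 TPM in PDGFRβ-S, 7.32 TPM in DN) and Cspg4, which encodes NG2 (10.5 TPM, 0.485 TPM and 1.31 TPM), were highest in DP, and Pdgfrb was not absent from DN. Ptprc (CD45) was at 0 in all 3 libraries and Pecam1 (CD31) reached 0.0864 TPM at most, in DP. Kit (cKit), the other gene of an excluded surface protein, was detected at 1.20 TPM in DP, 0.988 TPM in PDGFRβ-S and 1.71 TPM in DN.

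In DP the genes Ier3, Atf3, Egr1 and Junb were at levels from 15.7-fold to 129-fold those in DN, and in PDGFRβ-S and DN these 4 genes had 10 reads or fewer each. Klf6 and Jun were higher in DP by smaller factors from a level that was well measured in every library, Ier2 was abundant throughout, and Klf4, Fos and Fosb were low throughout. Summed over the 10 genes, the level was 189 TPM in DP, 61.1 TPM in PDGFRβ-S and 86.4 TPM in DN. Ier2 alone made up 34% of that sum in DP, against 60.2% in PDGFRβ-S and 62.2% in DN. Without Ier2 and Klf6, the other 8 genes summed to 71.3 TPM in DP, 8.53 TPM in PDGFRβ-S and 12.4 TPM in DN. Members at 10 TPM or more numbered 5 in DP, against 2 in PDGFRβ-S and 2 in DN, and those below 1 TPM numbered 3, 5 and 5. As these are bulk libraries, fewer cells with a transcript and less of it in each cell cannot be told apart.

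**Figure D1:**
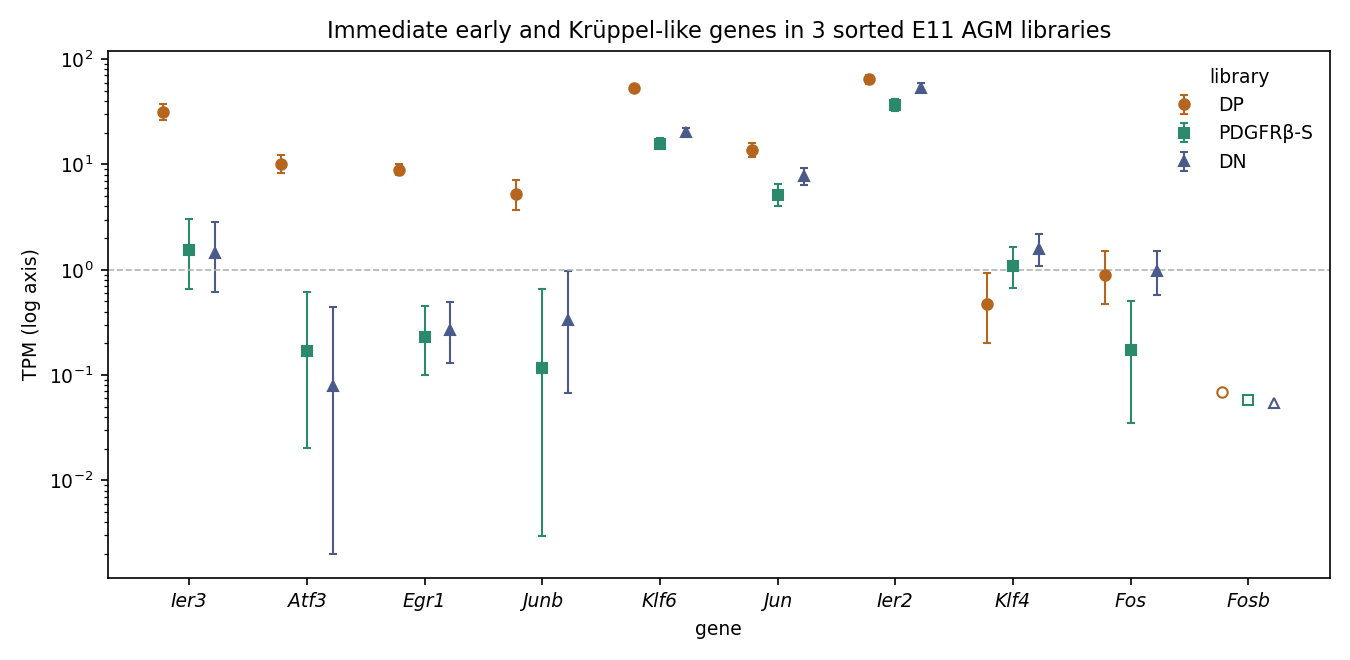
TPM of each of the 10 genes on a log axis in DP, PDGFRβ-S and DN, with 95% Poisson counting intervals and 1 library per population; the dashed line is 1 TPM, and open symbols (Fosb) have no interval. For Ier3, Atf3, Egr1 and Junb the DP point, 5.20 to 31.8 TPM, lies above both other intervals, while for Ier2 all points lie between 36.8 and 64.4 TPM.

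Jun (chromosome 4, 95049034 to 95052222, minus strand, mm10), which encodes the AP-1 subunit that can pair with itself, was at 13.8 TPM in DP (11.8 to 16.0, 170 reads), 5.17 TPM in PDGFRβ-S (4.07 to 6.47, 76 reads) and 7.70 TPM in DN (6.39 to 9.21, 121 reads). The DP interval overlapped neither of the others, and those of PDGFRβ-S and DN overlapped at their ends. By the annotation the exon of Jun shares 232 bases with the antisense gene Junos, which was at 0.952 TPM in DP, 0.266 TPM in PDGFRβ-S and 0.208 TPM in DN, and reads of the 2 genes cannot be told apart without strand. Junb (chromosome 8, 84976909 to 84978748, minus strand), a Jun family member often described as a brake on Jun, was at 5.20 TPM in DP (3.66 to 7.16, 37 reads), 0.118 TPM in PDGFRβ-S (0.00298 to 0.657, 1 read) and 0.331 TPM in DN (0.0683 to 0.967, 3 reads). Its DP level was thus far above both others, though in absolute terms it was below that of Jun. By the annotation 173 exon bases of Junb overlap Prdx2, a peroxiredoxin gene of the opposite strand that was at 428 TPM in DP, 407 TPM in PDGFRβ-S and 446 TPM in DN.

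Fos (chromosome 12, 85473890 to 85477273, plus strand), the prototype immediate early gene and a partner of Jun in AP-1, was at 0.886 TPM in DP (0.472 to 1.52, 13 reads), 0.172 TPM in PDGFRβ-S (0.0354 to 0.502, 3 reads) and 0.964 TPM in DN (0.571 to 1.52, 18 reads). The intervals of DP and DN overlapped almost in full, and no library held more than 18 reads of it. Fosb (chromosome 7, 19302721 to 19310045, minus strand), its close relative, was at 0.0689 TPM in DP, 0.0578 TPM in PDGFRβ-S and 0.0541 TPM in DN. Its values are equal numbers of reads in the 3 libraries, so a difference in Fosb was not detectable at this depth, and no interval is given because its read number could not be settled. The 4 AP-1 members therefore did not share a pattern: Junb and Jun were highest in DP, and Fos and Fosb were not distinguishable between DP and DN.

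Atf3 (chromosome 1, 191170296 to 191218039, minus strand), the stress-induced ATF/CREB factor, was at 10.2 TPM in DP (8.30 to 12.4, 101 reads), 0.169 TPM in PDGFRβ-S (0.0205 to 0.611, 2 reads) and 0.0792 TPM in DN (0.00201 to 0.441, 1 read). Nearly all reads of this gene were thus in the DP library. Egr1 (chromosome 18, 34859823 to 34864984, plus strand), the zinc-finger factor induced by growth factors and stretch, was at 8.94 TPM in DP (7.88 to 10.1, 260 reads), 0.231 TPM in PDGFRβ-S (0.0996 to 0.455, 8 reads) and 0.270 TPM in DN (0.130 to 0.497, 10 reads). Levels of Atf3 and Egr1 in PDGFRβ-S and in DN overlapped each other, and the DP intervals were far above them.

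Ier3 (chromosome 17, 35821684 to 35822923, plus strand), an early response gene that modulates cell survival, was at 31.8 TPM in DP (26.7 to 37.5, 139 reads), 1.53 TPM in PDGFRβ-S (0.662 to 3.02, 8 reads) and 1.44 TPM in DN (0.620 to 2.83, 8 reads). Ier2 (chromosome 8, 84661331 to 84662852, minus strand), an early response gene that encodes a nuclear protein, was at 64.4 TPM in DP (58.0 to 71.2, 379 reads), 36.8 TPM in PDGFRβ-S (32.4 to 41.5, 258 reads) and 53.8 TPM in DN (48.6 to 59.3, 403 reads). The 2 genes thus differed in pattern: Ier3 was low in PDGFRβ-S and DN, and Ier2 was abundant in all 3 libraries and lowest in PDGFRβ-S.

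Klf6 (chromosome 13, 5861489 to 5870393, plus strand), a Krüppel-like factor induced by injury, was at 53.6 TPM in DP (50.1 to 57.3, 875 reads), 15.8 TPM in PDGFRβ-S (14.1 to 17.7, 307 reads) and 20.2 TPM in DN (18.3 to 22.3, 420 reads). It had the most reads of the 10 genes in each library, and its 3 intervals did not overlap. Klf4 (chromosome 4, 55527143 to 55532466, minus strand), which represses contractile genes in vascular smooth muscle and serves as a pluripotency factor, was at 0.469 TPM in DP (0.202 to 0.924, 8 reads), 1.08 TPM in PDGFRβ-S (0.678 to 1.64, 22 reads) and 1.57 TPM in DN (1.08 to 2.19, 34 reads). It was the only one of the 10 genes with its lowest level in DP, and the DP interval was below that of DN but overlapped that of PDGFRβ-S.

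The sums above used the TPM as deposited. For the order of the genes TPM were put on merged exon length, because the lengths used for the table can count overlapping exons more than once. They were 1.61 times the merged length for Fos and 1.68 times for Egr1. For Junb and Klf6 they were shorter, 0.8 and 0.96 times the merged length, which lowers these 2 genes on the merged scale. On that scale the order in DP was Ier2 (50.6), Klf6 (40.5), Ier3 (25.0), Egr1 (11.8), Jun (10.8), Atf3 (9.53), Junb (3.27), Fos (1.12), Klf4 (0.534) and Fosb (0.130). Neighbours whose counting intervals overlapped were Egr1 and Jun, Jun and Atf3, and Fos and Klf4, and Fosb, which has no interval, could not be compared. In DN the order began with Ier2 (44.6), Klf6 (16.1), Jun (6.39) and Klf4 (1.88), each apart from the one before it, and in PDGFRβ-S it began with the same 4 genes at 30.9, 12.7, 4.34 and 1.31. From Klf4 downward all neighbours with an interval overlapped in PDGFRβ-S and DN. Ier3, Egr1, Atf3 and Junb thus stood above Klf4 in DP, beyond their intervals, and not in the other libraries.

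The first comparison asked how DP, the cells next to the aorta, differed from the DN stroma. A gene was called higher or lower at a 2-fold difference of log2(TPM + 1), provided that the higher library had 10 TPM or more, which understates the change of low genes. Of the 10 genes 5 reached 10 TPM in DP or DN, and 3 of these, Ier3, Atf3 and Klf6, were called higher and 0 lower. Over all genes, 19% of the 8268 genes at that level were called higher and 16.2% lower. With TPM rescaled to nuclear protein-coding genes these shares were 13.1% and 21.9%, and without the 20 genes of highest mean TPM 14.5% and 23.2%. The median log2 difference of the 10 genes was 1.06, beside -0.13 over all 15890 genes with a mean of at least 1 TPM.

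Ier3 was 22.1-fold higher in DP than in DN (10.9 to 52.3), with a log2 difference of 3.75. Atf3 was 129-fold higher (22.6 to 5128), where the width of the interval reflects the single read in DN, with a log2 difference of 3.37, and Klf6 was 2.65-fold higher (2.36 to 2.99), with a log2 difference of 1.36. Egr1 at 33.1-fold (17.7 to 69.8) and Junb at 15.7-fold (4.97 to 79.6) had log2 differences of 2.97 and 2.22, and they were not called only because neither reached 10 TPM. Jun was 1.79-fold higher (1.41 to 2.28) and Ier2 1.20-fold higher (1.04 to 1.38), both short of the 2-fold limit. Atf3 was close to the level limit, and it was not called at 30 TPM, after quantile normalization or median centring, or per merged exon length. Klf6 was not called at a 4-fold limit. Of the other members, Klf4 was 3.34-fold lower in DP than in DN (1.52 to 8.35), and the ratio of Fos was 0.919 (0.414 to 1.99). The counting interval of the ratio lay above 1 for 7 genes, below 1 for Klf4 and held 1 for Fos. The share of all genes with an interval apart from 1 was not computed. With many reads such an interval can go with a small difference, as for Ier2.

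**Figure D2:**
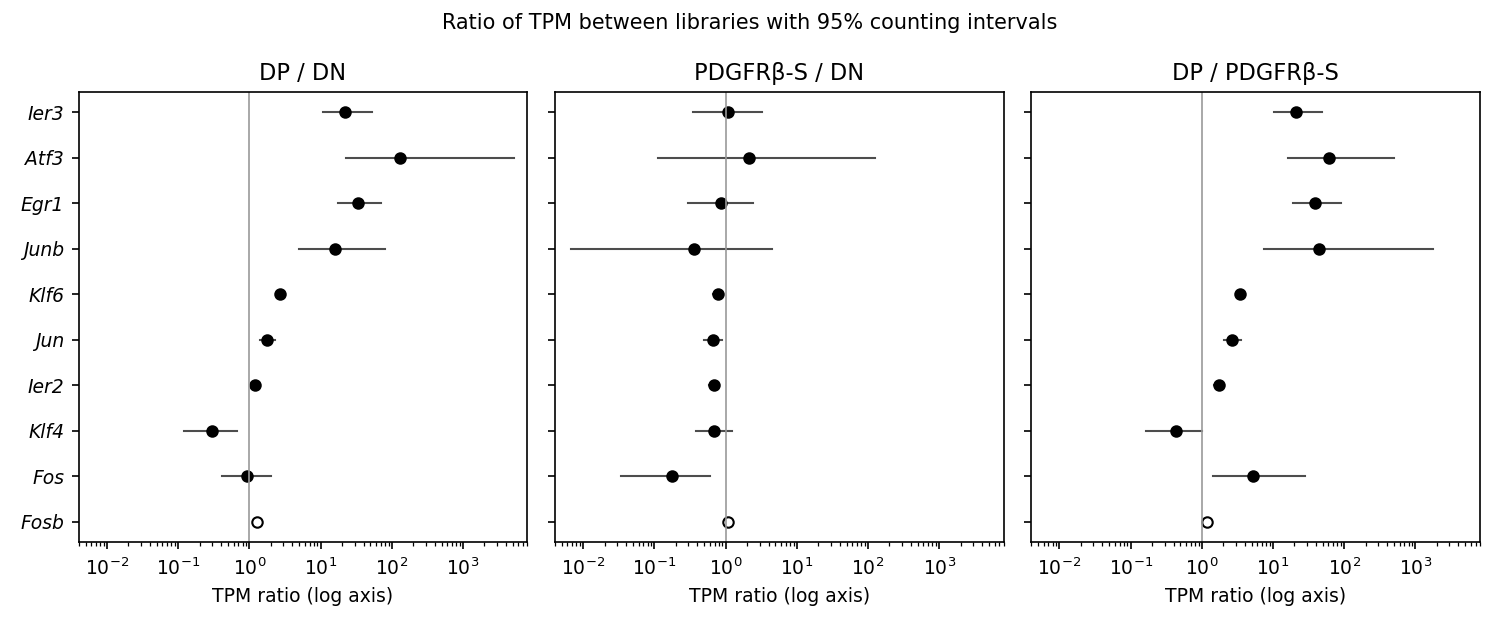
Ratio of TPM between libraries for each of the 10 genes, on a log axis, as DP over DN, PDGFRβ-S over DN and DP over PDGFRβ-S, with 95% binomial counting intervals as bars; Fosb (open) has none. Ratios with DP on top reach 129 (Atf3 against DN), while those of PDGFRβ-S over DN lie between 0.178 (Fos) and 2.14 (Atf3).

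The second comparison set PDGFRβ-S against DN, which share the absence of NG2. Only Ier2 and Klf6 reached 10 TPM, and 0 members were called in either direction. Of the 7375 genes tested 1.51% were called higher in PDGFRβ-S and 8.15% lower. The median log2 difference of the 10 genes was -0.28, beside -0.30 over all genes. The counting interval of the ratio lay below 1 for 4 genes: Fos, 5.62-fold lower in PDGFRβ-S (1.64 to 29.8, on 3 against 18 reads), Ier2 at a ratio of 0.684 (0.583 to 0.802), Jun at 0.671 (0.497 to 0.901) and Klf6 at 0.781 (0.672 to 0.907). It held 1 for 5 others, and Fosb has no interval. Among the 5 were the members with the largest ratios of DP over DN: Ier3 at 1.07 (0.350 to 3.27), Egr1 at 0.855 (0.293 to 2.41), Junb at 0.356 (0.00678 to 4.44) and Atf3 at 2.14 (0.111 to 126). A difference between PDGFRβ-S and DN was not detectable for them at this depth, and for Junb and Atf3 the intervals are too wide to exclude a large one. The share of all genes with an interval apart from 1 was not computed here either. Ier2, Jun and Klf6 had log2 differences of -0.54, -0.50 and -0.34, beside the median of -0.30 over all genes.

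DP was also set against PDGFRβ-S, the populations that share PDGFRβ; it uses the same DP library as the first comparison. Of 5 genes at 10 TPM, 4 were called higher in DP, Ier3, Atf3, Klf6 and Jun, and 0 lower. The shares over 7734 genes were 30.6% higher and 11.2% lower, which became 20% and 18.9% after quantile normalization and 21.8% and 15.2% with nuclear protein-coding genes alone. Ier3 was 20.7-fold higher (10.2 to 48.9), Atf3 60.2-fold (16.2 to 504), Klf6 3.40-fold (2.98 to 3.88) and Jun 2.67-fold (2.02 to 3.54). Jun was not called on nuclear protein-coding genes alone, after quantile normalization or with a pseudocount of 5 TPM, and Atf3 was not called after quantile normalization, median centring or per merged exon length. Below 10 TPM, Egr1 was 38.7-fold higher (19.4 to 90.7), Junb 44.1-fold (7.44 to 1788, on 1 read in PDGFRβ-S) and Fos 5.16-fold (1.42 to 28.3, on 3 reads). The ratio of Ier2 was 1.75 (1.49 to 2.06) and that of Klf4 0.433 (0.167 to 1.01). The median log2 difference of the 10 genes was 1.48, beside 0.13 over all genes.

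Of the members higher in DP, 6 kept the sign of the difference under 7 alternative settings of pseudocount, scaling and gene length. The log2 difference of DP against DN ran from 2.51 to 4.37 for Ier3, from 1.58 to 5.84 for Atf3, from 1.10 to 1.40 for Klf6, from 1.40 to 4.61 for Egr1, from 0.94 to 3.62 for Junb and from 0.52 to 0.83 for Jun. That of Ier2 ran from -0.03 to 0.26, with the negative value on nuclear protein-coding genes alone, and that of Fos from -0.26 to 0.40, with the positive value after quantile normalization. For PDGFRβ-S against DN the log2 difference of Klf6 ran from -0.35 to -0.00, the latter after quantile normalization. In that comparison it ran from -0.57 to -0.13 for Jun, from -0.55 to -0.28 for Ier2 and from -1.97 to -0.21 for Fos.

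**Figure D3:**
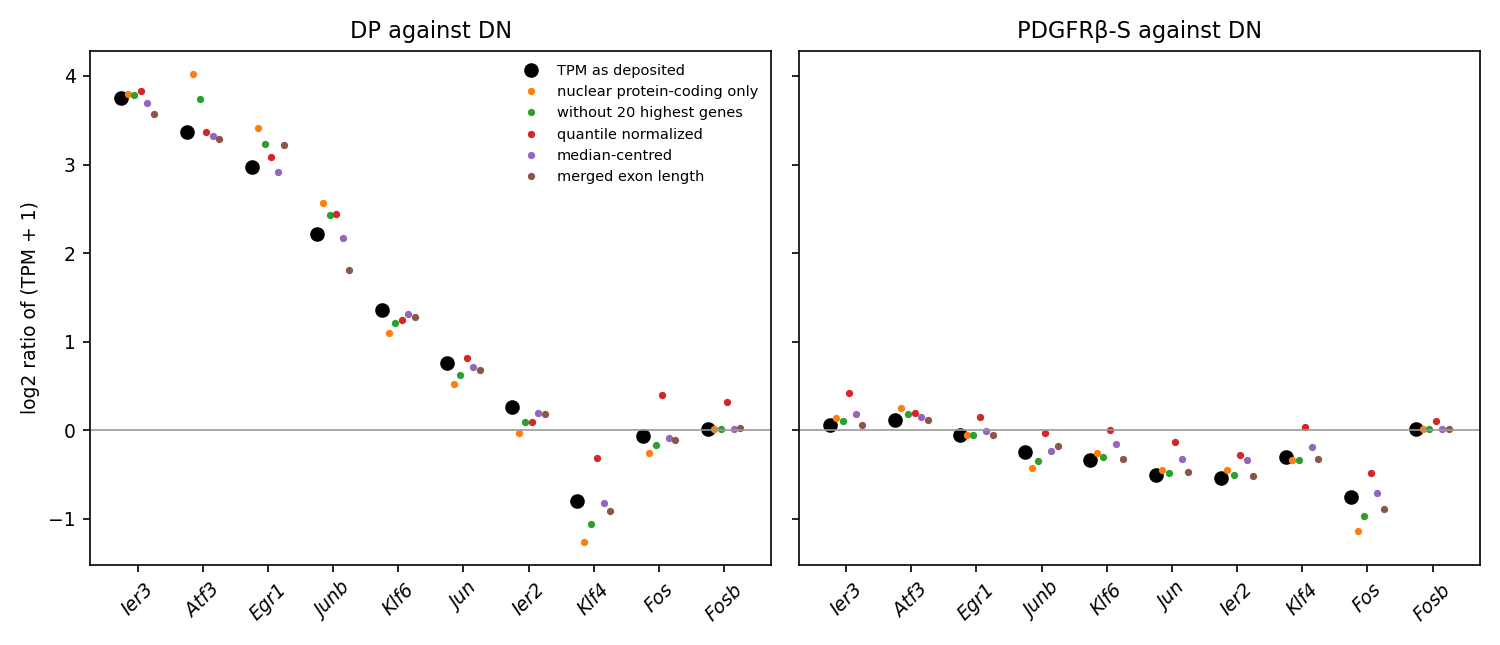
Log2 ratio of (TPM + 1) of each of the 10 genes for DP against DN and for PDGFRβ-S against DN, as deposited (large black points) and under 5 other scalings (small points). For DP against DN Ier3, Atf3, Egr1, Junb, Klf6 and Jun stay above 0 under each scaling shown, and Ier2 and Fos cross it.

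Among 35 other early response genes, 19 reached 10 TPM in DP or DN, of which 9 were called higher in DP and 1 lower, beside the 19% and 16.2% of all genes. The highest ratios were those of Ccn1, a matricellular protein gene induced by serum and stretch, at 222 TPM in DP, 27.1 TPM in PDGFRβ-S and 11.3 TPM in DN (DP over DN 19.7-fold, 16.3 to 24.1), and of its relative Ccn2 at 40.3, 1.14 and 1.58 TPM (25.5-fold, 18.4 to 36.5). The MAP kinase phosphatase gene Dusp1, which ends the kinase signal, the growth arrest genes Gadd45b and Gadd45g, the mRNA decay factor Zfp36, the NF-κB inhibitor Nfkbia, Plk2 and Errfi1 were the others called higher. Dusp1 was at 32.1 TPM in DP, 4.26 TPM in PDGFRβ-S and 3.75 TPM in DN. Zfp36l2, a relative of Zfp36, was called lower, at 10.1 TPM in DP, 36.6 TPM in PDGFRβ-S and 28.9 TPM in DN, and the antiproliferative gene Btg1 was at 35.3, 35.7 and 53.1 TPM. Against PDGFRβ-S, 12 of 19 genes at that level were called higher in DP and 1 lower, beside 30.6% and 11.2% of all genes. Between PDGFRβ-S and DN, 1 of 11 genes at that level (Ccn1) was called higher and 0 lower, beside 1.51% and 8.15% of all genes.

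Relatives of the members among AP-1 and Maf, Egr and Nr4a and Krüppel-like genes were mostly below 10 TPM. Of the 10 ATF and CREB relatives, given further below, 6 reached 10 TPM. Of 10 other AP-1 and Maf subunits 0 reached 10 TPM. Jund, the third Jun gene, was at 6.02 TPM in DP, 2.26 TPM in PDGFRβ-S and 1.98 TPM in DN. Batf was at 8.12 TPM in DP, 1.36 TPM in PDGFRβ-S and 0.638 TPM in DN (DP over DN 12.7-fold, 5.52 to 36.1), and Mafg was lower in DP, at 3.17 TPM against 4.33 TPM in PDGFRβ-S and 8.78 TPM in DN. Of 6 other Egr and Nr4a factors, the orphan receptor Nr4a1 alone reached 10 TPM, and it was called higher in DP, beside 19% of all genes. It was at 10.03 TPM in DP, close to the limit, 0.0877 TPM in PDGFRβ-S and 1.72 TPM in DN (DP over DN 5.82-fold, 4.15 to 8.33). Its relative Nr4a2 was lowest in DP, at 0.69, 1.67 and 3.19 TPM in the same libraries (DP over DN 0.216-fold, 0.121 to 0.364). Of 15 other Krüppel-like factors 3 reached 10 TPM in DP or DN and 1, Klf14, was called higher in DP, at 19.7 TPM against 2.41 TPM in PDGFRβ-S and 0.997 TPM in DN, beside 19% of all genes higher and 16.2% lower. Klf11 was at 10.4 TPM in DP, 3.65 TPM in PDGFRβ-S and 6.95 TPM in DN, and Klf13 was at 8.45, 6.44 and 10.2 TPM. Klf12 had its highest level in PDGFRβ-S, 12.0 TPM, against 7.80 TPM in DP and 7.88 TPM in DN.

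Heat shock genes, which also respond to dissociation, were set beside the members. Of 11 genes 9 reached 10 TPM and 4 were called higher in DP than in DN, 0 lower, beside 19% and 16.2% of all genes. The 4 were Hspb1, Hspa8, Hspa5 and Hsp90ab1. Hspb1, a small heat shock protein gene, was at 360 TPM in DP, 12.7 TPM in PDGFRβ-S and 11.1 TPM in DN, and the chaperone gene Hspa8 was at 1152, 167 and 262 TPM. Hsp90aa1 (449 TPM in DP, 239 TPM in PDGFRβ-S, 332 TPM in DN) and Hspe1 (193, 242 and 256 TPM) were not called. The inducible pair Hspa1a (0.871 TPM in DP, 0.439 TPM in PDGFRβ-S, 0.205 TPM in DN) and Hspa1b (0.553, 0.696 and 0.435 TPM) stayed low, with reads that may be split between near-identical copies. Between PDGFRβ-S and DN 0 of 9 were called, beside 1.51% and 8.15% of all genes.

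**Figure D4:**
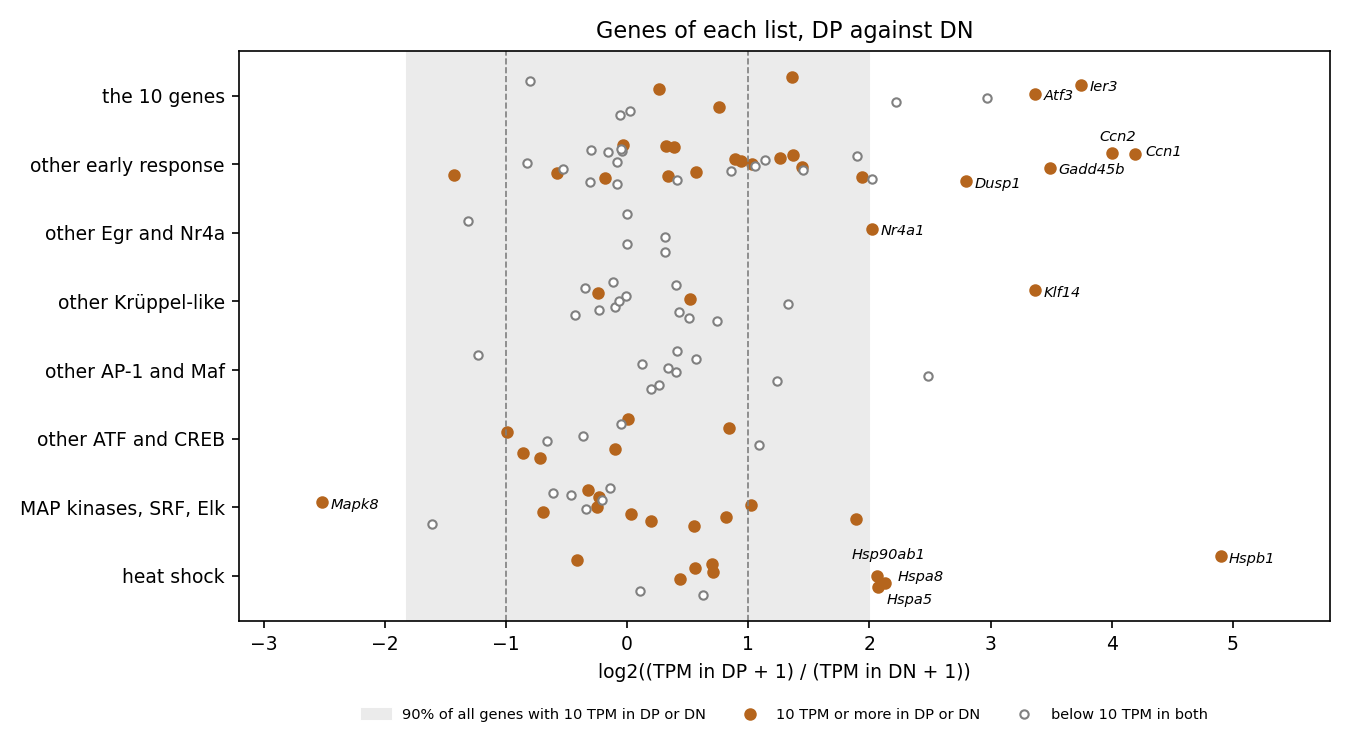
Log2((TPM + 1)/(TPM + 1)) of DP over DN for every gene of the 10 and of 7 related lists, one point per gene, filled at 10 TPM or more; dashed lines are the 2-fold limits and the band holds 90% of all 8268 genes at that level, from -1.81 to 2.00. Above the band lie Ier3 (3.75), Atf3 (3.37), Egr1 (2.97) and Junb (2.22) and, among others, Ccn1, Ccn2, Gadd45b, Dusp1, Klf14, Batf, Hspb1, Hspa8, Hspa5 and Hsp90ab1, and Mapk8 (-2.52) lies below it.

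Markers of other cells moved between these libraries as well. Summed over 8 endothelial markers the level was 5.88 TPM in DP, 4.70 TPM in PDGFRβ-S and 2.30 TPM in DN, with Cdh5, Tie1 and Sox17 at 0 in all 3. Tek was at 2.36 TPM in DP, 0.631 TPM in PDGFRβ-S and 0.269 TPM in DN (DP over DN 8.78-fold, 4.50 to 19.1), while Kdr was at 1.58, 1.53 and 1.16 TPM and Emcn at 1.74, 2.09 and 0.715 TPM. Erg was lowest in DP, at 0.113 TPM against 0.426 TPM in PDGFRβ-S and 0.155 TPM in DN. Summed over 9 blood markers the level was 627 TPM in DP, 15200 TPM in PDGFRβ-S and 14520 TPM in DN, nearly all of it embryonic globin (Hbb-y, 375 TPM in DP). Ptprc, Spi1 and Adgre1 were at 0 throughout. Csf1r was detected at 1.81 TPM in DP, 2.44 TPM in PDGFRβ-S and 2.74 TPM in DN, and Runx1 at 0.525, 1.05 and 1.17 TPM. The 7 sympathetic neuroblast markers summed to 25.8 TPM in DP, 22.3 TPM in PDGFRβ-S and 285 TPM in DN, and the 6 skeletal muscle markers to 7.55, 9.14 and 105 TPM. All 6 smooth muscle markers and 4 of the 9 heat shock genes at 10 TPM were called higher in DP than in DN, as Ier3, Atf3 and Klf6 were. The other 5 heat shock genes at that level were not called, and the 4 blood markers at that level were called lower. Of all genes at that level 19% were called higher and 16.2% lower. The part of each in the differences was not tested. The time from dissection to lysis and the number of cells per library are not given in the sources used here.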

How the data were processed

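Bulk RNA-seq was made from full-length cDNA of polyadenylated RNA, amplified by a Smart-seq2-type protocol, tagmented and sequenced as single reads, without strand information or molecular identifiers. The submitters' processing notes name TopHat2 2.0.10 as the aligner and mm10 as the build. The authors deposited TPM for 47069 genes with Ensembl identifiers, 1 column for each of the 3 libraries. The methods describe TPM of RefSeq transcripts by Cufflinks and, separately, counts over GENCODE, and the identifiers of the table do not match the first route. A second sheet with 4 columns and 2 genes was not used.

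No read counts were in the table. TPM multiplied by the summed length of all distinct exons of a gene (GENCODE M21), overlapping exons counted separately, was a whole multiple of a constant per library. Within 0.0001 of a read this held in all 3 libraries for 65.8% of the 9425 genes with 50 to 5000 reads in each, and for 8.16% with merged exon length. Of 25671 genes above 0, 19484 gave whole reads at the annotated length and another whole length was sought for 6036. Junb, Klf6 and Fosb were among the genes with a length sought. Recovery was tried on data simulated from genes with whole reads at the annotated length, with the length altered for some of them. Genes with a length sought were not the source of that simulation, so it does not check their reads directly. Reads were used for depth and intervals only. At 2 kb of exons, 3 reads stood for 0.388 TPM in DP, 0.325 TPM in PDGFRβ-S and 0.305 TPM in DN.

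Intervals are exact Poisson (levels) or exact binomial (ratios) at 95%. Differences were taken as log2((TPM + 1)/(TPM + 1)), so the pseudocount was 1 TPM. The limit for a call was 2-fold on this scale, where the higher library had 10 TPM or more. With 1 library per population no test was made. The 10 members and the 14 gene lists (the members are one of them) were chosen with earlier results of these data known. Named genes are all members and, of each other list, the 2 highest and 2 lowest ratios of DP over DN at 10 TPM or more in any library. Other listed genes that were named (Dusp1, Gadd45b, Gadd45g, Zfp36, Nfkbia, Plk2, Errfi1, Hspa5, Hsp90ab1, Hspa1a, Hspa1b, Jund, Batf, Mafg, Nr4a2, Atf5, Tek, Kdr, Emcn, Erg, Csf1r, Runx1 and Kit) were chosen after their values were seen. Ccn1 and Ccn2, listed under older symbols, were matched by identifier. Python 3.11.15, pandas 2.3.3, numpy 2.4.6, scipy 1.17.1 and matplotlib 3.10.9 were used.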

Additional observations from a re-analysis of the deposited data

How the results depend on the processing

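Alternatives were pseudocounts of 0.1 and 5 TPM, level limits of 1 and 30 TPM and none, fold limits of 1.5 and 4, 4 other scalings and, chosen after seeing the data, TPM per merged exon length. For DP against DN, 5 members were called with a limit of 1 TPM and 5 with no limit, since Egr1 and Junb were then added, and 2 to 4 under the others. All were called higher. Of all genes, 14.8% were called higher with a limit of 1 TPM and 5.59% with no limit. Under the other settings that share ran from 4.98% (4-fold) to 31% (1.5-fold). For DP against PDGFRβ-S, 2 were called with a limit of 30 TPM, 2 at 4-fold and 2 after quantile normalization, and 3 to 6 under the others. These too were all called higher. The shares of all genes called higher were 33%, 10.1% and 20% at the named settings in turn. They ran from 8.59% (no limit) to 43.9% (1.5-fold) under the others. For PDGFRβ-S against DN 0 were called under each. Of all genes, 0.312% (4-fold) to 4.97% (limit of 1 TPM) were called higher in that comparison. Those called lower were 1.65% (4-fold) to 24.8% (1.5-fold). No called difference changed sign. Atf3, at 10.2 TPM in DP, was not called under the 30 TPM limit, quantile normalization, median centring or merged exon length. The median log2 difference of the members ran from 0.75 to 1.12 for DP against DN, from 0.94 to 1.81 for DP against PDGFRβ-S and from -0.42 to 0.02 for PDGFRβ-S against DN, the positive value after quantile normalization. The median of all genes for DP against DN ran from -0.28 to -0.05. No replicate could be left out. No paired analysis was possible because each population had 1 library. Levels on 10 reads or fewer (Atf3, Egr1, Junb and Ier3 outside DP, Fos in PDGFRβ-S, Klf4 in DP) are limited by depth, as is Fosb.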

Other observations

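Genes upstream of the members were examined as a list of 17 MAP kinase cascade and SRF-Elk genes. Of these 11 reached 10 TPM in DP or DN, 2 were called higher in DP and 1 lower, beside 19% and 16.2% of all genes. Map2k2, a MAP kinase kinase of the ERK branch, was at 35.4 TPM in DP, 8.50 TPM in PDGFRβ-S and 8.86 TPM in DN (DP over DN 4.00-fold, 3.48 to 4.61). Its target Mapk3 (ERK1) was at 26.9 TPM in DP, 5.82 TPM in PDGFRβ-S and 12.8 TPM in DN (log2 difference of DP over DN 1.02). Mapk8 (JNK1), a kinase of Jun, was called lower in DP, at 2.18 TPM against 13.6 TPM in PDGFRβ-S and 17.3 TPM in DN, and Map2k6 of the p38 branch was at 10.7, 19.1 and 17.9 TPM. Mapk3 was called lower in PDGFRβ-S than in DN.

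Of 10 other ATF and CREB factors, relatives of Atf3, 6 reached 10 TPM and 0 were called between DP and DN, beside 19% of all genes higher and 16.2% lower. Against PDGFRβ-S, 1 of 6, Creb3, was called higher in DP and 0 lower, beside 30.6% and 11.2% of all genes. Creb3, a membrane-bound factor of the secretory pathway, was at 45.5 TPM in DP, 12.9 TPM in PDGFRβ-S and 24.9 TPM in DN. Ddit3, a stress-induced factor, was at 20.6 TPM in DP, 20.8 TPM in PDGFRβ-S and 20.4 TPM in DN. Creb1 was at 5.75, 10.5 and 12.4 TPM and Atf2 at 8.81, 12.8 and 16.8 TPM. Atf3 thus had a ratio of DP over DN above that of each relative that reached 10 TPM, the highest of which was 1.83-fold (1.63 to 2.05, Creb3).

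Of 7160 nuclear protein-coding genes with 10 TPM or more, those whose pair of log2 differences over the 3 libraries lay nearest to the medians of the members (1.06 for DP against DN, -0.28 for PDGFRβ-S against DN) were Adrm1, Vkorc1, Rab3ip, Ubl4a and Rbm10, at distances of 0.012 to 0.033. Adrm1 was at 20.7 TPM in DP, 7.50 TPM in PDGFRβ-S and 9.38 TPM in DN. Members themselves spread from -0.80 (Klf4) to 3.75 (Ier3) for DP against DN.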
